A study of Mus musculus with 4 samples.

Results

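Expression of 41 genes of the S and G2/M phases of the cell cycle was followed in invariant natural killer T (iNKT) cells of the mouse thymus. The 41 genes were taken by symbol from the 32285 genes of the deposited matrices, and all 41 were present. The cells were sorted as CD3+ CD1d.PBS57+ (cells that bind CD1d loaded with the lipid PBS57, the ligand by which iNKT cells are recognised) from the thymus of BALB/c and of B6 mice, and single-cell libraries were made with a droplet kit that reads transcripts from their 5' end. There were 2 BALB/c libraries and 2 B6 libraries; both strains were given by genotype alone, with no treatment, and age, sex, number of mice and pooling were not among the labels used here. It is therefore not known if both libraries of a strain had their own animals, and the p-values below measure the spread between these libraries.

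The genes follow the order of a cell's division. E-type cyclins open S phase; the Mcm2 to Mcm7 helicase, loaded on origins, unwinds DNA; the Pcna clamp and the nucleotide-making enzymes (Rrm1, Rrm2, Tyms, Tk1, Dut) carry replication; Cdk1 with cyclins A2, B1 and B2 drives entry into mitosis; kinetochore and spindle proteins move the chromosomes; and Cdc20 and Ube2c, working with the anaphase-promoting complex, release the sister chromatids that securin (Pttg1) holds back. In the thymus, iNKT cells arise from CD4+CD8+ double-positive thymocytes, divide at an early stage, and mature into iNKT1, iNKT2 and iNKT17 subsets, which are defined by their transcription factors and cytokines. BALB/c mice are known as a strain rich in iNKT2 cells and B6 mice as a strain rich in iNKT1 cells.

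Many of these genes carry known promoter elements. G2/M genes commonly hold CCAAT boxes, bound by NF-Y, and a cell cycle genes homology region (CHR), bound by the DREAM and MuvB complexes, whereas S phase genes commonly hold E2F sites. RefSeq promoters (250 bases before to 50 after a gene's start, 300 bases in all, build GRCm38.p6) were found for 34 of the 41 genes, with 36 promoters in total. The words searched on both strands were TTTGAA and TTCGAA for the CHR, CCAAT for the CCAAT box, and TTTCCCGC, TTTGGCGC, TTTCGCGC and TTTGCCGC for E2F. A CHR word stood in 77.8% of the 18 promoters of G2/M genes, 12.5% of the 16 promoters of S genes and 19.2% of all 32851 mouse promoters. A CCAAT box stood in 88.9%, 75% and 37.4% of the same sets, an E2F word in 5.56%, 37.5% and 2.26%, and a CCAAT box together with a CHR word in 77.8%, 12.5% and 7.52%. These matches describe letters in a window and are not evidence of binding.

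The promoters of 5 members that differed between the strains in the tests below are printed 5' to 3' on the gene's strand, with the matched words in capitals; a word that lies on the opposite strand appears as its complement (CCAAT as ATTGG).
Mcm6: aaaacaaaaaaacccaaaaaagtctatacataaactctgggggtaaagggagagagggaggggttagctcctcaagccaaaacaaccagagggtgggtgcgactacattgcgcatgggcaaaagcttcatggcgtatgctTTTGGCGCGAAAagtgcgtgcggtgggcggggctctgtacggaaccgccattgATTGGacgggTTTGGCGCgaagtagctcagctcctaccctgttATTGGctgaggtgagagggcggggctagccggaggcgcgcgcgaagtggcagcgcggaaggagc
Ccnb2: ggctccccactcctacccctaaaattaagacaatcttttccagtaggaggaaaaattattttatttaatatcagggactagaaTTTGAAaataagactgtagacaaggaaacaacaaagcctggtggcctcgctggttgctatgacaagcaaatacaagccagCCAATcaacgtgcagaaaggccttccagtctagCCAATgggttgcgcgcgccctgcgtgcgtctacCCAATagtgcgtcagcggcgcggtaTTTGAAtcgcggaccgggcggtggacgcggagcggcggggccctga
Cdca3: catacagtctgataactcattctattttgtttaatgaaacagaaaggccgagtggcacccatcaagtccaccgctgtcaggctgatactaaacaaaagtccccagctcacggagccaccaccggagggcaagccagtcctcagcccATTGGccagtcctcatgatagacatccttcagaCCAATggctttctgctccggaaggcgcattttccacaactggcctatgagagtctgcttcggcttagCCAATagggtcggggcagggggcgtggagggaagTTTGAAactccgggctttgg
Cenpa: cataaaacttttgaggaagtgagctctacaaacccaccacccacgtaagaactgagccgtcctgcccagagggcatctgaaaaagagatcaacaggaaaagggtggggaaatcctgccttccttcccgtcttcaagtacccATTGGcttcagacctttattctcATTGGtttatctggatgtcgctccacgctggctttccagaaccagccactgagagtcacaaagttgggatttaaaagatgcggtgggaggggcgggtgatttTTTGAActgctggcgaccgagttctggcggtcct
Bub1b: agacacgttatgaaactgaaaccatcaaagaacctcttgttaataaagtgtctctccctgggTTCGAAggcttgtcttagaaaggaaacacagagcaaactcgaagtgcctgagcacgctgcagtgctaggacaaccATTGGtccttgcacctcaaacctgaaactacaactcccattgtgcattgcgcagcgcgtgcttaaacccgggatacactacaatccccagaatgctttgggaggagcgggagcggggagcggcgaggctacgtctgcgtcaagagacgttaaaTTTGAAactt
The windows lie at chr1:128359656-128359955 on the minus strand (Mcm6), chr9:70421505-70421804 on the minus strand (Ccnb2), chr6:124829926-124830225 on the plus strand (Cdca3), chr5:30666636-30666935 on the plus strand (Cenpa) and chr2:118597961-118598260 on the plus strand (Bub1b). The G2/M genes Ccnb2, Cdca3, Cenpa and Bub1b each held at least 1 CCAAT box upstream of a CHR word near the start. The S gene Mcm6 held CCAAT boxes and E2F words, the first 2 of which overlap each other. The window follows the RefSeq start. It held the 5' end of the gene in the GENCODE vM21 annotation for 27 of the 36 promoters and lay wholly inside the annotated gene for 7, among them those of Cdca3 and Pttg1, so that it does not reach the sequence before the annotated gene there. The window of Pttg1 is not printed.

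BALB/c matrices held 2038 and 2056 barcodes and B6 matrices 2494 and 9732, with 23124810 and 22798414 UMIs for BALB/c and 20406245 and 82904358 for B6. Of these, 1864 and 1913 BALB/c cells and 2328 and 8790 B6 cells were kept. The second B6 library held the most cells, and its file header names a later Cell Ranger version than the other 3 headers, so that library and software version cannot be told apart. Pairs of libraries shared 4 to 33 barcode sequences, at most 1.42% of the smaller library. Each cell was thinned to 3000 UMIs so that depth was equal, and was called when at least 4 of 17 S genes or at least 4 of 21 G2/M genes were detected. A called cell was S where the larger share of the S list was detected, and G2/M otherwise. The shallower cells left out numbered 221 and 161 in the BALB/c and 360 and 1027 in the B6 libraries. Stmn1, Hmgb2 and Pttg1 took no part in the calls.

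Of the 13126 thinned cells, 1479 were called, 1174 in S and 305 in G2/M. The called range has no sharp edge: 552 S calls (47.0%) rested on 4 or 5 S genes, and 852 cells with 3 S genes were left uncalled, whereas the G2/M calls included 52 at 4 or 5 genes and 36 uncalled cells had 3. No G2/M gene was detected in 572 of the S calls (48.7%).

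**Figure D1:**
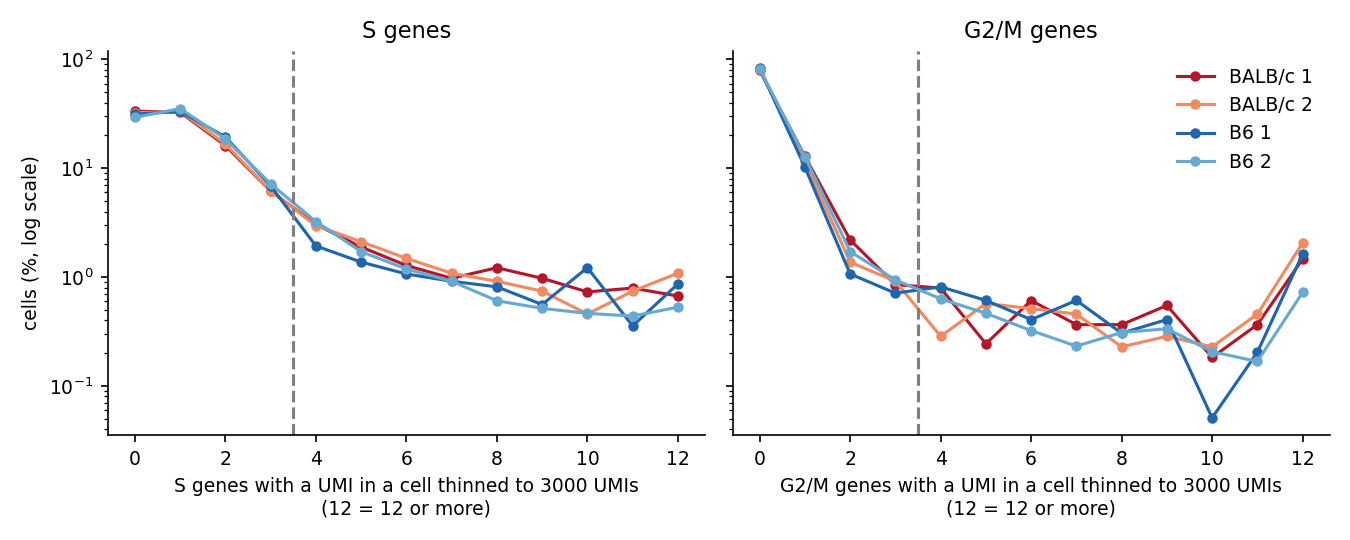
Percent of cells (log axis) by the number of S genes (left) and of G2/M genes (right) detected after thinning to 3000 UMIs; lines are libraries, 12 stands for 12 or more, and the dashed line marks the threshold of 4 genes. S gene numbers fall off gradually across the threshold, and 552 of 1174 S calls had 4 or 5 S genes.

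BALB/c thymic iNKT sorts held slightly more called cells than B6 sorts. The share in S or G2/M was 13% (213 of 1643 cells, exact 95% binomial interval 11.4 to 14.7) and 12.9% (226 of 1752, 11.4 to 14.6) in the BALB/c libraries, against 10.3% (203 of 1968, 9.01 to 11.7) and 10.8% (837 of 7763, 10.1 to 11.5) in the B6 libraries. The BALB/c mean was 12.9 ± 0.0456% and the B6 mean 10.5 ± 0.33% (SD, n = 2 each), a difference of 2.38 points. The strains did not overlap, but 2 against 2 libraries cannot give a two-sided exact permutation p below 0.33, which is the value here. S cells made up 10.1 ± 0.291% in BALB/c and 8.22 ± 0.778% in B6, and G2/M cells 2.85 ± 0.245% in BALB/c and 2.33 ± 0.447% in B6. Without the second B6 library the G2/M difference of 0.526 points fell to 0.209, and with scanpy's phase scores in place of gene numbers the S or G2/M difference was 0.199 points. Intervals cover counting error only. Without thinning, the share was 35.6 ± 4.17% in BALB/c and 26.3 ± 1.43% in B6, and the median depth of kept cells was 11003.5 and 9131 UMIs in BALB/c and 7016 and 6922.5 UMIs in B6.

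The order of the strains turned round among cells with iNKT2 markers and among cells with iNKT1 markers. Cells were clustered with 227 genes that follow the cycle left out, and clusters were named from marker lists; called cells then took the class of their nearest neighbours (on average 91.8% of a called cell's neighbours belonged to its class). In the iNKT2-like class (Il4, Il13, Zbtb16, Plac8, Il17rb and other markers), called cells were 16.9% (157 of 928) and 21% (156 of 744) in BALB/c, against 39.1% (104 of 266) and 36.6% (476 of 1300) in B6, with means of 18.9 ± 2.86% and 37.9 ± 1.76% (SD, n = 2 each). In the iNKT1-like class (Tbx21, Cxcr3, Il2rb, Klrd1), called cells were rare in both strains, at 2.14% (3 of 140) and 1.69% (5 of 295) in BALB/c, against 6.22% (23 of 370) and 5.41% (154 of 2844) in B6. The strains did not overlap in either class, and each difference had the smallest exact permutation p that the design allows, 0.33. The difference of -18.9 points in iNKT2-like cells was -5.64 when cells were classed by their highest marker score and -7.6 when all cells were clustered together, and the one of -3.9 points in iNKT1-like cells was -0.606 with scanpy scores. The -7.6 covers few BALB/c cells. In that joint clustering a cluster of 862 and 663 BALB/c cells stayed unnamed, though iNKT2 was its best list. The clusters named iNKT2 there held 14 and 27, and 11 and 14, BALB/c cells.

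In the iNKT17-like class (Il23r, Il1r1, Il17re), the called share was 7.17% (23 of 321) and 6.67% (12 of 180) in BALB/c, against 7.35% (5 of 68) and 11.8% (20 of 170) in B6, so that the strains differed by less than the spread of the B6 libraries (-2.64 points, and -0.437 without the second B6 library). The class with double-positive thymocyte markers (Rag1, Cd8a, Cd8b1, Dntt; DP-like below) had 24.5% (27 of 110) and 21.1% (38 of 180) in BALB/c, against 23.8% (30 of 126) and 21.5% (55 of 256) in B6, which overlapped. Of its 672 cells, 404 (60.1%) carried the name iNKT0-like when the clusters were made finer. G2/M cells were 10.1 ± 1.43% of it in BALB/c and 8.29 ± 3.99% in B6. Among iNKT1-like cells, G2/M calls numbered 0 of 140 and 0 of 295 in BALB/c, which allow shares of up to 2.14% and 1.02%, and 4 of 370 and 4 of 2844 in B6. Without thinning, the called shares were 56.7% in BALB/c and 69.1% in B6 for iNKT2-like, 13.3% and 23.7% for iNKT1-like, 32.8% and 42.8% for iNKT17-like, and 34.6% and 33.3% for DP-like cells.

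**Figure D2:**
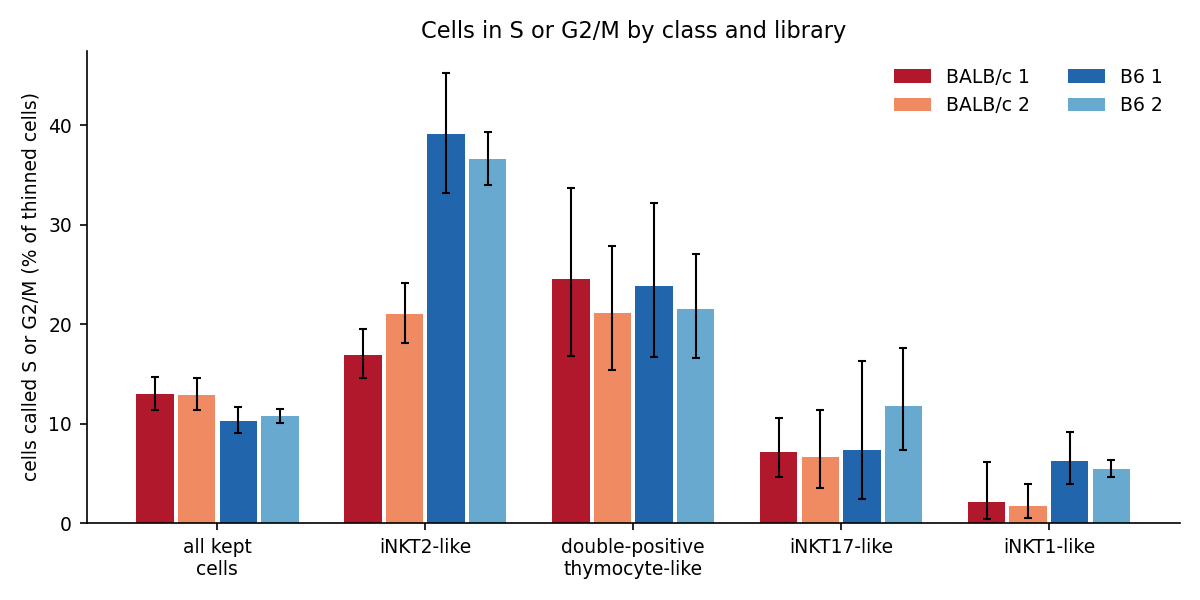
Share of cells called S or G2/M after thinning to 3000 UMIs, over all kept cells and in 4 classes. Each bar is a library and the whiskers are exact 95% binomial intervals. BALB/c lies above B6 over all kept cells (12.9% and 10.5%) and below it among iNKT2-like (18.9% and 37.9%) and iNKT1-like cells (1.92% and 5.82%).

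Outside these 4 classes stood unnamed clusters (136 and 326 thinned cells in BALB/c, 1029 and 2527 in B6, with 2 and 14 called in BALB/c and 39 and 116 in B6), interferon-responding cells (2 and 8 in BALB/c, 99 and 665 in B6) and B-like cells (6 and 19 in BALB/c, 10 and 1 in B6).

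The strains also differed in subset mix, and the cause of the order over all cells, with BALB/c above B6, was not tested. iNKT2-like cells made up 56.5% and 42.5% of BALB/c cells, against 13.5% and 16.7% of B6 cells, and they supplied 73.7% and 69.0% of the called BALB/c cells, against 51.2% and 56.9% of the called B6 cells. With every library given the same class mix, the called share was 8.84% and 10.5% for BALB/c, against 17.3% and 16.7% for B6, a difference of -7.34 points that lies opposite to the one over all cells. The exact permutation p was again 0.33.

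The strain difference in iNKT2-like cells was also read by cluster, and whether it differed between clusters was not tested. Cluster 0, led by Prg4, Sox13, Cntnap1 and Ccr4, held 93.1% and 95.2% of the class in BALB/c, whereas cluster 2, led by Igfbp4, Il17rb and Plac8, held 78.9% and 95.2% of it in B6. In cluster 0 the called share was 16.1% and 19.9% in BALB/c, against 42.9% (24 of 56) and 41.9% (26 of 62) in B6. In cluster 2 it was 28.1% (18 of 64) and 41.7% (15 of 36) in BALB/c, against 38.1% and 36.3% in B6, so that the strains overlapped there. Sox13 was listed here as a gamma-delta T cell marker, and that list ranked second in cluster 0. With clusters made finer (resolution 1.5), a cluster led by Hey1, Sox13 and Cntnap1 took the name gamma-delta T-like, with 440 and 321 uncalled cells in BALB/c, against 14 and 20 in B6. The iNKT1-like cells also sat in different clusters: among uncalled cells, cluster 7 (led by Ifitm2, Ccl5 and Gzma) held 133 and 280 BALB/c cells, against 1 and 0 B6 cells. Cluster 10 held 3 and 10 BALB/c cells, against 321 and 1069 B6 cells, and cluster 11 held 1 and 0 BALB/c cells, against 25 and 1621 B6 cells. The class shares therefore rest on rebuilt names whose clusters differ between the strains.

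Within libraries, the classes stood in the same order for 5 of the 6 pairs. The called share was higher in iNKT2-like than in iNKT1-like cells in 4 of 4 libraries, by 14.8 to 32.9 points, and higher in iNKT17-like than in iNKT1-like cells in 4 of 4, by 1.14 to 6.35 points. iNKT2-like and DP-like cells each lay above iNKT17-like cells in 4 of 4 libraries, by means of 20.2 and 14.5 points, and DP-like above iNKT1-like cells by 18.9. iNKT2-like cells lay above DP-like cells in 2 of 4, the B6 libraries. Each of those 5 pairs had an exact sign-flip p of 0.125, the smallest that 4 libraries allow (Benjamini-Hochberg 0.15 over 6 pairs), and the sixth had 0.5. Shallower cells had been left out before the calls, and their number per class is not given. Uncalled DP-like cells had relative median UMIs of 0.515, against 1.14 for iNKT17-like ones. Mean DP-like shares still lay above iNKT17-like ones at 2000 UMIs (BALB/c 21.1% against 4.56%, B6 18.1% against 7.06%). Without thinning DP-like cells lay above iNKT17-like ones in BALB/c (34.6% and 32.8%) and below them in B6 (33.3% and 42.8%). The part of the depth cut in the DP-like order was not tested.

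Summed over all kept cells, the 41 genes gave a small strain difference with few calls. Counts were summed per library and tested with edgeR's quasi-likelihood test; levels are CPM, that is UMIs scaled to a fixed library total, with library sizes scaled by TMM. A sum does not tell more called cells from more RNA per cell. Mcm6 and Pttg1 passed as lower in BALB/c and no member passed as higher: 2 of 41 passed at an adjusted p of 0.05, against 7.28% of the 12878 genes tested. Passed or not, levels were higher in BALB/c for 34 members and lower for 7. The median log2 fold change, BALB/c over B6, was 0.18 for the members and -0.02 for all genes tested. The level was highest in the second BALB/c library for 21 members and in the first B6 library for 19, and lowest in the second B6 library for 37, so that the spread within B6 was as wide as the strain difference for most of them.

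Among the helicase genes, Mcm6 had 93.9 and 94.1 CPM in BALB/c, against 153 and 154 CPM in B6 (log2 fold change -0.71, SE 0.0714, adjusted p = 0.0227). The libraries of each strain nearly coincided for this subunit. Its partners gave no call: Mcm5 had 76.5 and 77.6 CPM in BALB/c and 69.5 and 66.3 CPM in B6, and Mcm2 had 69 and 71.4 CPM in BALB/c and 63.7 and 58 CPM in B6, neither past the threshold (adjusted p = 0.216 and 0.223). Over the 7 helicase genes the log2 fold changes ran from -0.71 to 0.22 with a median of 0.16.

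The other groups gave no call except Pttg1. The E-type cyclin Ccne1 had 11.8 and 14.5 CPM in BALB/c and 15.1 and 10.1 CPM in B6, and Ccne2 6.19 and 6.34 CPM in BALB/c and 7.03 and 6.22 CPM in B6. The clamp gene Pcna had 107 and 120 CPM in BALB/c and 110 and 94.3 CPM in B6, Dut, which removes dUTP, 163 and 184 CPM in BALB/c and 159 and 127 CPM in B6, and the ribonucleotide reductase subunit Rrm2 77.3 and 94.9 CPM in BALB/c and 86.5 and 48.1 CPM in B6. In these groups the strains overlapped for each gene but Dut, and the second B6 library was lowest for Pcna, Dut and Rrm2.

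The strains also overlapped for the mitotic genes. Cdk1, the mitotic kinase, had 29.1 and 40.1 CPM in BALB/c and 35.2 and 23.1 CPM in B6; Ccnb1, its cyclin, 14.4 and 19.3 CPM in BALB/c and 17.9 and 11.3 CPM in B6; and the spindle pole kinase Aurka 9.87 and 13.8 CPM in BALB/c and 11.9 and 6.56 CPM in B6. Of the chromosome and spindle genes, Mki67, which coats mitotic chromosomes, had 94.2 and 106 CPM in BALB/c and 106 and 69.2 CPM in B6 (log2 0.19, adjusted p = 0.612), and Top2a, which untangles DNA, 104 and 142 CPM in BALB/c and 132 and 69.7 CPM in B6. Nusap1 had 21.9 and 36.2 CPM in BALB/c and 25.2 and 15.8 CPM in B6, Cdca8 29.2 and 37.8 CPM in BALB/c and 34.4 and 22.3 CPM in B6, and Cdca3 14.3 and 19.8 CPM in BALB/c and 30.2 and 16.9 CPM in B6. In all of these but Cdca3 the second B6 library was lowest; for Cdca3 the first BALB/c library was.

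Of the genes of anaphase, Cdc20 had 24.3 and 27.6 CPM in BALB/c and 24.2 and 18 CPM in B6, and Ube2c 54.9 and 89.2 CPM in BALB/c and 70.2 and 34.9 CPM in B6, neither past the threshold. Pttg1 had 42.3 and 48.5 CPM in BALB/c, against 71.3 and 71.1 CPM in B6 (log2 -0.65, SE 0.101, adjusted p = 0.0407). Of the genes kept out of the calls, Stmn1, which takes tubulin out of microtubules, had 305 and 375 CPM in BALB/c and 277 and 186 CPM in B6 (log2 0.56, adjusted p = 0.207), and Hmgb2, which bends DNA, 515 and 645 CPM in BALB/c and 700 and 514 CPM in B6. Without the first BALB/c library the log2 fold changes of Mcm6 and Pttg1 were -0.71 and -0.55 (adjusted p = 0.342 and 0.399), and without the second -0.71 and -0.75 (0.262 and 0.242). With 1 BALB/c library its spread is taken from the B6 libraries, and 0 of 13723 and 0 of 13721 genes passed in those fits, so the lost calls say nothing about these 2 genes. Without the first B6 library 20 members passed, where 37.7% of 13798 genes did.

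Within the iNKT2-like class all 41 members had lower levels in BALB/c than in B6. Log2 fold changes ran from -1.57 to -0.19 with a median of -0.82, against -0.02 for all genes tested, and 5 members passed the threshold, where 7.63% of 12024 genes did. At an unadjusted p under 0.05 there were 29 of the 41, where 26.7% of those genes were. The calls were made from 38 of these genes, so the lower called share in BALB/c in this class is no separate measurement. Subset and lineage markers differed between the strains in the same cells: 13 of 16 iNKT1 markers were lower in BALB/c (median log2 -2.44), 4 of 6 egress genes lower and 1 higher (-1.09), 4 of 10 interferon-response genes lower and 1 higher (-0.66), 2 of 10 double-positive thymocyte markers lower (-1.37) and 3 of 5 gamma-delta T markers higher (0.92). Their part in the values of the members was not tested.

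Mcm6 had 108 and 122 CPM in BALB/c iNKT2-like cells, against 261 and 232 CPM in B6 ones (log2 -1.10, SE 0.112, adjusted p = 0.0117). Cdca3, which promotes entry into mitosis, had 15.8 and 21.6 CPM in BALB/c, against 70.2 and 42.2 CPM in B6 (log2 -1.57, adjusted p = 0.0441), and the mitotic cyclin gene Ccnb2 had 30.1 and 37.5 CPM in BALB/c, against 95.8 and 64.2 CPM in B6 (log2 -1.23, adjusted p = 0.0431). The centromeric histone gene Cenpa had 65.9 and 77.1 CPM in BALB/c, against 157 and 124 CPM in B6 (log2 -0.97, adjusted p = 0.0308). The spindle checkpoint kinase gene Bub1b had 12.7 and 14.8 CPM in BALB/c, against 31.1 and 23.6 CPM in B6 (log2 -0.97, adjusted p = 0.0447). In each of these 5 the first B6 library was highest and no library of one strain reached the other; these are the members whose promoters are printed above. Mki67 had 92.9 and 122 CPM in BALB/c and 230 and 153 CPM in B6 (log2 -0.83) with an adjusted p of 0.107. Ccnb2 has a named pseudogene, to which reads could be shared. Without the first BALB/c library the 5 kept log2 fold changes of -1.01 (Mcm6), -1.36 (Cdca3), -1.08 (Ccnb2), -0.86 (Cenpa) and -0.87 (Bub1b), and without the second of -1.19, -1.81, -1.40, -1.08 and -1.09 in the same order. 0 members passed in those fits, but so few genes did (30 of 12558 and 41 of 12733) that the lost calls say nothing about these 5. Without the first B6 library 29 members passed, where 41.3% of genes did, and without the second 41, where 25.7% did.

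Among the iNKT2-like cells that were not called, 37 members were tested and 3 were lower in BALB/c, where 9.15% of 11366 genes passed. Mcm6 had 46 and 46.2 CPM in BALB/c, against 135 and 133 CPM in B6 (log2 -1.54); Cdca3 had 0.979 and 1.36 CPM in BALB/c, against 4.44 and 4.54 CPM in B6 (log2 -1.95); and Pttg1 had 13 and 13.1 CPM in BALB/c, against 55.3 and 65.8 CPM in B6 (log2 -2.23).

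**Figure D3:**
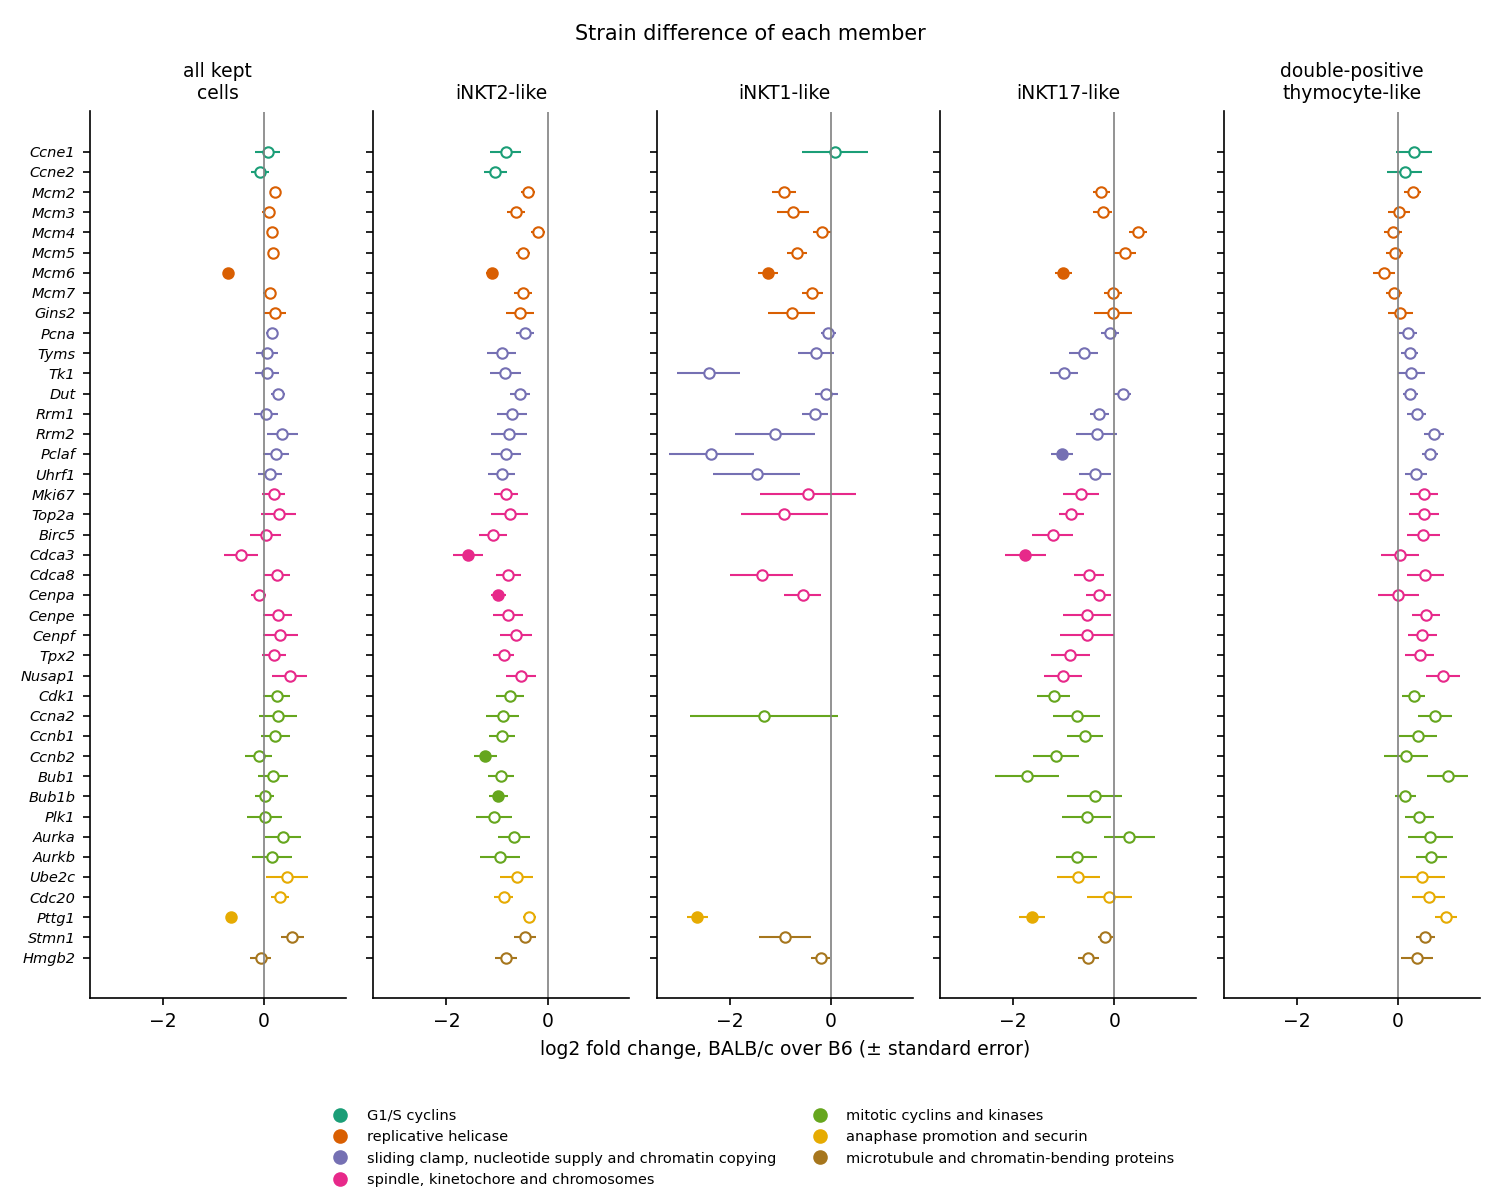
Log2 fold change, BALB/c over B6, of each of the 41 genes in all kept cells and in 4 classes, with the standard error; colours are roles, filled points passed an adjusted p of 0.05, and untested genes have no point. All 41 lie below 0 in the iNKT2-like class (-1.57 to -0.19), and Mcm6 and Pttg1 are the members past the threshold over all kept cells.

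The iNKT1-like and iNKT17-like classes gave the same direction, and the DP-like class did not. In iNKT1-like cells 24 members could be tested and 23 had lower levels in BALB/c (median log2 -0.77); Mcm6 and Pttg1 passed, where 2.38% of 9372 genes did. Mcm6 had 53 and 37 CPM in BALB/c, against 95.2 and 110 CPM in B6 (log2 -1.24, adjusted p = 0.0293), and Pttg1 had 11.7 and 9.13 CPM in BALB/c, against 64.2 and 61.6 CPM in B6 (log2 -2.64, adjusted p = 0.00258). Without the first BALB/c library Mcm6 had -1.46 and Pttg1 -2.76, and without the second -0.96 and -2.43; neither passed, but only 9 of 9998 and 8 of 10046 genes did, so this says nothing about the pair. The 17 members not tested here were those with too few UMIs.

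In iNKT17-like cells 4 of the 39 members tested were lower in BALB/c, where 4.45% of 9479 genes passed. Mcm6 had 54.3 and 51.9 CPM in BALB/c, against 88.3 and 121 CPM in B6 (log2 -1.01, adjusted p = 0.0139), and the Pcna partner gene Pclaf 27.5 and 42.3 CPM in BALB/c, against 67.9 and 71.4 CPM in B6 (log2 -1.04, adjusted p = 0.0359). Cdca3 had 5.88 and 5.05 CPM in BALB/c, against 26 and 14.6 CPM in B6 (log2 -1.76, adjusted p = 0.0442), and Pttg1 25.7 and 17 CPM in BALB/c, against 54.3 and 77.2 CPM in B6 (log2 -1.63, adjusted p = 0.00964). Without the first BALB/c library Mcm6 (-1.02), Cdca3 (-1.92) and Pclaf (-0.72) lost the call, in a fit where 2.16% of genes passed, and without the second Mcm6 (-0.96) and Cdca3 (-1.70) did, where 2.57% passed. Pttg1 kept it with any library left out. Pclaf overlaps Trip4 on the other strand.

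In DP-like cells 37 of 41 members had higher levels in BALB/c and 0 passed in edgeR's test, with 0.821% of 8772 genes past the threshold. At an unadjusted p under 0.05 there were 6, where 10.8% of those genes were. Pttg1 had 119 and 163 CPM in BALB/c and 70.3 and 76 CPM in B6 (log2 0.95, adjusted p = 0.129). Pclaf had 423 and 493 CPM in BALB/c and 295 and 297 CPM in B6 (log2 0.63, adjusted p = 0.18), and Rrm2 384 and 398 CPM in BALB/c and 282 and 199 CPM in B6. Without the first B6 library 21 members passed in this class, where 11.1% of 9601 genes did, and without the second 1 did, where 1.92% of 8713 did. Pttg1 thus passed as lower in BALB/c in the iNKT1-like and iNKT17-like classes, while among DP-like cells both BALB/c libraries lay above both B6 libraries without a call.

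Set against the uncalled cells of the same libraries, called cells had higher levels of 40 of the 41 genes in edgeR's test with the library as a block, where 26.4% of 12094 genes were higher and 30.3% lower. The calls were made from 38 of these genes, so their rise is a description. Mki67 had 402, 414, 444 and 309 CPM in called cells (first and second BALB/c library, then first and second B6 library), against 4.25, 4.85, 5.49 and 4.45 CPM in other cells. Mcm5 had 242, 225, 228 and 207 CPM in called cells and 28.8, 29.4, 23.7 and 29 CPM in other cells. Called cells also held more RNA, with a median of 22732 and 23330.5 UMIs in BALB/c and 20104 and 17845 UMIs in B6; other cells had 11269 and 9011 UMIs in BALB/c and 7315 and 7137 UMIs in B6. Marked doublets, which were removed, would have been called in 6.25% and 11.8% of cases in BALB/c and 6% and 9.77% in B6.

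Stmn1, Hmgb2 and Pttg1 took no part in the calls, though they too were chosen with earlier results of these data known. Stmn1 had 1080, 1230, 1030 and 722 CPM in called cells of the 4 libraries in the same order, against 77.4, 86.8, 52 and 39.7 CPM in other cells (log2 4.03, SE 0.096, adjusted p = 2.57e-08). Hmgb2 had 1500, 1880, 2060 and 1380 CPM in called cells, against 234, 242, 318 and 288 CPM in other cells (log2 2.65, adjusted p = 2.15e-07). Both rose in 4 of 4 libraries, and within the iNKT2-like class alone their log2 fold changes were 3.31 and 2.66. Pttg1 did not pass: it had 141, 160, 81.3 and 61.5 CPM in called cells and 14, 12, 72.8 and 76.6 CPM in other cells (log2 1.56, SE 0.675, adjusted p = 0.0785), higher in called cells in 3 of 4 libraries and lower in the second B6 library. Within the iNKT2-like class it passed (log2 1.72, adjusted p = 0.0148), where 24.8% of 10840 genes were higher in called cells and 25.8% lower.

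**Figure D4:**
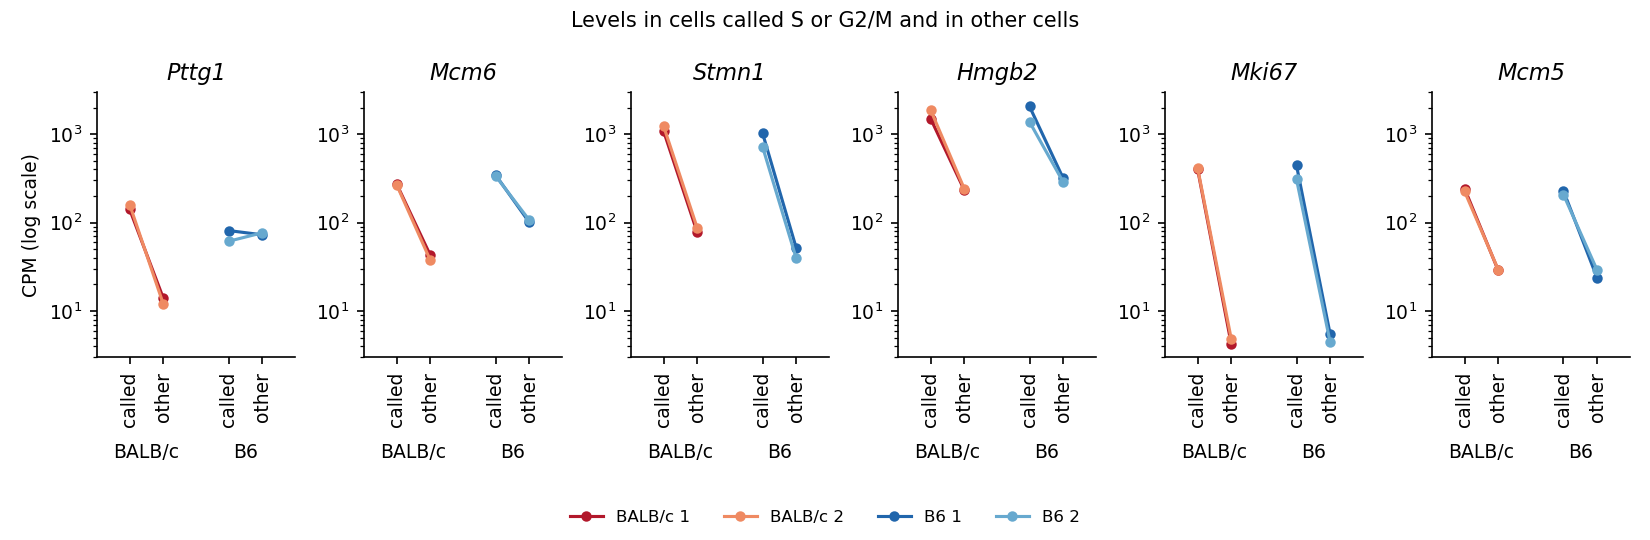
CPM (log axis) of Pttg1, Mcm6, Stmn1, Hmgb2, Mki67 and Mcm5 in called and in other cells; each line joins the 2 values of a library. Pttg1 stands apart from Stmn1 and Hmgb2: other cells had 14 and 12 CPM in BALB/c and 72.8 and 76.6 CPM in B6.

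Pttg1 separated called from other cells in BALB/c and hardly in B6. The strain change among called cells less that among other cells was 3.66 on the log2 scale (SE 0.169, adjusted p = 1.26e-05), in a fit where 3.13% of 12094 genes passed in either direction. Among called cells alone, Pttg1 averaged 154 ± 13.9 CPM in BALB/c and 72.9 ± 14.3 CPM in B6 (SD, n = 2 each; log2 1.09, SE 0.167, adjusted p = 0.0394 by edgeR's quasi-likelihood test), the only member called there, where 3.03% of 10813 genes passed. Without the first BALB/c library the log2 fold change was 1.18 and without the second 0.99 (adjusted p = 0.268 and 0.331); only 29 of 11347 and 48 of 11237 genes passed in those fits, so the lost call says nothing about Pttg1. Among cells not called, Pttg1 had 13.9 and 11.9 CPM in BALB/c, against 69.9 and 74.1 CPM in B6 (log2 -2.48, adjusted p = 0.00535), in a comparison where 9.12% of 12306 genes and 3 of 39 members passed.

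In the iNKT2-like and iNKT17-like classes Pttg1 was likewise higher in called than in other cells in both BALB/c libraries, and among the B6 values it was so only for iNKT2-like cells of the first library. On library sizes without TMM scaling, iNKT2-like called cells had 142 and 146 CPM in BALB/c and 87.5 and 69.9 CPM in B6, and iNKT2-like other cells 12.8 and 12.6 CPM in BALB/c and 54 and 70.2 CPM in B6. iNKT17-like called cells had 132 and 100 CPM in BALB/c and 48.9 and 57.2 CPM in B6, and iNKT17-like other cells 11.9 and 6.1 CPM in BALB/c, against 51.9 and 86.7 CPM in B6. Those called values rest on 57 and 25 UMIs in BALB/c and on only 5 and 26 in B6. In DP-like other cells the strains overlapped at 66.4 and 33.6 CPM in BALB/c and 62.4 and 86.2 CPM in B6, while called ones had 198 and 311 CPM in BALB/c and 80.2 and 67.4 CPM in B6. Uncalled iNKT1-like cells had 11.9 and 7.53 CPM in BALB/c and 63.3 and 66.7 CPM in B6. The 3 and 5 called iNKT1-like BALB/c cells held 0 and 3 UMIs of Pttg1, too few for a level, and the called B6 ones had 52.9 and 46.2 CPM. No other gene overlaps Pttg1 in the annotation used.

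Stmn1, Mcm6, Tk1 and Nusap1 also differed between the strains in how far called cells stood from other cells. For Stmn1 the difference of the strain changes was -0.42 (adjusted p = 0.0368); among uncalled cells it had 76.8 and 86.1 CPM in BALB/c, against 49.9 and 38.4 CPM in B6 (log2 0.89, adjusted p = 0.0408). The Stmn1 call was lost with thinned cells (-0.43, adjusted p = 0.181) and without the first BALB/c library (-0.44, 0.0671). By class, on library sizes without TMM scaling, uncalled iNKT2-like cells went the other way, with 74.8 and 98.1 CPM of Stmn1 in BALB/c, against 113 and 106 CPM in B6. Uncalled iNKT1-like cells had 31.4 and 19.1 CPM in BALB/c, against 14.5 and 15 CPM in B6, DP-like ones 512 and 470 CPM in BALB/c, against 411 and 344 CPM in B6, and iNKT17-like ones 46.2 and 37.6 CPM in BALB/c and 101 and 28.1 CPM in B6, which overlapped. Mcm6, Tk1 and Nusap1 took part in the calls, and so were tested with calls made without them, an alternative that was not planned. It left 187 and 200 called BALB/c cells, from 213 and 226, and 188 and 674 called B6 cells, from 203 and 837. The cells that lost their call joined the other cells, and their part in the values below was not tested. Mcm6 then differed by 0.91 (adjusted p = 0.00055), in a fit where 4.85% of 11946 genes passed: under the calls from all 38 genes, uncalled cells had 42.5 and 37.3 CPM in BALB/c, against 97.3 and 104 CPM in B6 (log2 -1.33, adjusted p = 0.0116), while called cells had 280 and 276 CPM in BALB/c and 353 and 346 CPM in B6 (log2 -0.33, adjusted p = 0.155). Tk1 differed by 1.51 (adjusted p = 0.0103) and Nusap1 by 2.84 (adjusted p = 0.00171). Ube2c, which stayed among the calling genes, also passed in that fit (0.85, adjusted p = 0.0333). Tk1 and Nusap1 rest on few UMIs, as other cells held 21 and 34 UMIs of Tk1 in BALB/c and 58 and 239 in B6, and 5 and 3 UMIs of Nusap1 in BALB/c and 19 and 59 in B6; both overlap another gene on the other strand.

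The rest of the cell cycle machinery was read from lists of genes that took no part in the calls, beside a median log2 fold change of -0.05 over all genes tested. Of all genes 26.4% were higher and 30.3% lower in called cells. These lists were chosen with earlier results of these data known, so their rise is a description. All 36 mitotic spindle and chromosome genes, all 20 replication fork genes, all 18 genes of chromatin and tubulin of dividing cells and all 12 origin licensing and firing genes were higher in called cells, with median log2 fold changes of 4.88, 2.41, 1.70 and 2.65. Of the checkpoint and repair genes 14 of 15 were higher (median 2.82). Of the E2F, RB and DREAM factors 14 of 16 were higher and 1 lower (median 1.61).

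Named by lowest p, the spindle genes Hmmr and Spc24 had 47.8 ± 9.99 and 106 ± 21.9 CPM in called cells and 0.284 ± 0.0612 and 1.99 ± 0.153 CPM in other cells (SD, n = 4 libraries), and the mitotic motor Kif11 had 102 ± 21 CPM in called cells and 1.09 ± 0.295 CPM in other cells. Cdc45, part of the active helicase, had 47.1 ± 3.51 CPM in called cells and 1.67 ± 0.202 CPM in other cells, and Gmnn, which blocks relicensing, 119 ± 9.36 CPM in called cells and 15.9 ± 1.61 CPM in other cells. At the fork, the ligase Lig1 had 142 ± 16.2 CPM in called cells and 9.94 ± 0.986 CPM in other cells. Of the transcription factors, Mybl2, which joins MuvB at G2/M promoters, had 30.5 ± 4.82 CPM in called cells and 0.189 ± 0.12 CPM in other cells, and Foxm1 25.9 ± 3.88 CPM in called cells and 0.974 ± 0.132 CPM in other cells. E2f1 had 48.2 ± 6.73 CPM in called cells and 3.45 ± 1.25 CPM in other cells, and the repressor E2f8 35.3 ± 7.25 CPM in called cells and 0.28 ± 0.285 CPM in other cells. Each of these was higher in 4 of 4 libraries, with log2 fold changes from 2.88 for Gmnn to 7.16 for Hmmr.

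**Figure D5:**
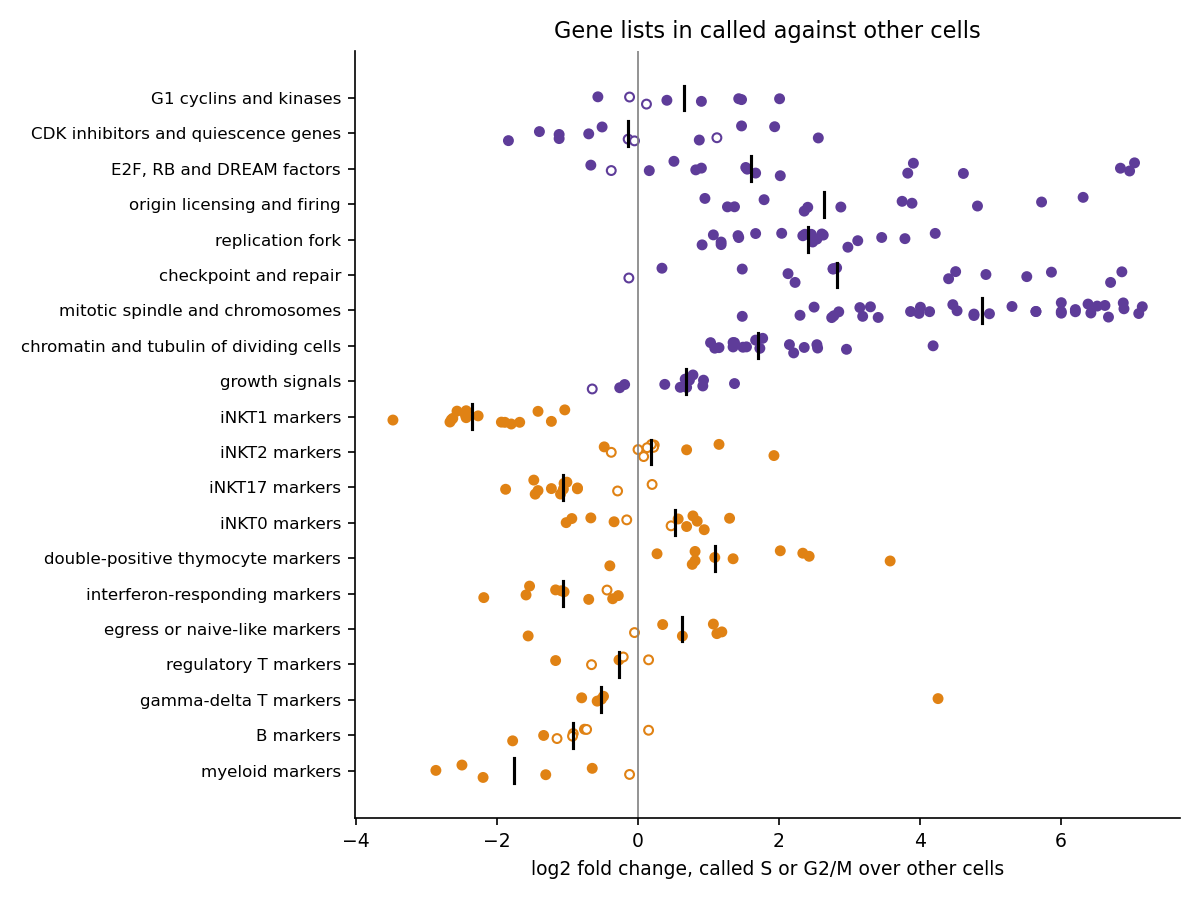
Log2 fold change, called over other cells, of the genes of each cell cycle list (purple) and marker list (orange); points are genes, filled where they passed an adjusted p of 0.05, and black lines are medians. The mitotic spindle list has a median of 4.88 and the G1 cyclin list one of 0.66, and all 16 iNKT1 markers lie below 0.

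The genes of G1 and of quiescence moved less. Of 8 G1 cyclin and kinase genes 5 were higher and 1 lower (median 0.66): Cdk2 had 68.4 ± 7.73 CPM in called cells and 17 ± 2.5 CPM in other cells, and Cdk4 383 ± 31.2 CPM in called cells and 206 ± 24.6 CPM in other cells. Of 13 CDK inhibitors and quiescence genes 4 were higher and 6 lower (median -0.14), where 26.4% and 30.3% of all genes were. The antiproliferative gene Btg1 had 193 ± 19.3 CPM in called cells and 690 ± 59.9 CPM in other cells (log2 -1.84), Pdcd4 103 ± 29.3 CPM in called cells and 275 ± 94.4 CPM in other cells (log2 -1.40) and the inhibitor gene Cdkn1b 52.8 ± 4.12 CPM in called cells and 85.5 ± 8.47 CPM in other cells (log2 -0.70), whereas Cdkn2c, an inhibitor of Cdk4 and Cdk6, had 59.8 ± 9.14 CPM in called cells and 9.88 ± 3.52 CPM in other cells (log2 2.56). Of 12 growth genes 9 were higher and 2 lower (median 0.68), among them the transferrin receptor gene Tfrc at 33 ± 4.64 CPM in called cells and 12.8 ± 2.61 CPM in other cells and the nucleolar gene Ncl at 722 ± 69.7 CPM in called cells and 435 ± 37.6 CPM in other cells.

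Some lists of subset markers moved with the calls, beside 26.4% of all genes higher and 30.3% lower in called cells. The calls differed in class mix as given above, and the part of the mix in these changes was not tested. Values within the iNKT2-like class are given beside them. All 16 iNKT1 markers and 11 of 13 iNKT17 markers were lower in called cells, with Fasl at 13.8 ± 11.9 CPM in called cells and 81.7 ± 57.9 CPM in other cells and Cxcr3 at 45.1 ± 38.7 CPM in called cells and 160 ± 123 CPM in other cells. Within the iNKT2-like class, 4 of 15 iNKT1 markers were lower and 1 higher, a share of lower ones near the 25.8% of all genes there. Of 11 iNKT2 markers 3 were higher and 1 lower, a share of higher ones near that of all genes. Among the higher ones, Il13 had 78.8 ± 19.5 CPM in called cells and 23 ± 14.1 CPM in other cells, and Plac8 198 ± 18.1 CPM in called cells and 89.2 ± 7.33 CPM in other cells. Within the iNKT2-like class 2 were higher and 8 lower, where 24.8% and 25.8% of all genes were. Of 11 double-positive thymocyte markers 10 were higher and 1 lower, led by Mns1, Dntt and Arpp21. Within the iNKT2-like class 5 of 8 were higher and 1 lower (median log2 2.36), with Dntt at 3.98 and Arpp21 at 4.19, and the part of such cells in the called iNKT2-like group was not tested. Trdc, the delta T cell receptor constant gene, had 16.5 ± 12.5 CPM in called cells and 0.669 ± 0.304 CPM in other cells. Of the other T lineage lists, 6 of 12 iNKT0 markers were higher and 4 lower, 5 of 7 egress genes higher and 1 lower, 2 of 5 regulatory T markers lower, and 4 of 5 gamma-delta T markers lower with Trdc the 1 that was higher. Of 10 interferon-response genes 9 were lower and 0 higher, with Ifit3 at 12.1 ± 11.5 CPM in called cells and 58.7 ± 51 CPM in other cells.

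Markers of cells outside the T lineage did not rise with the calls, where 26.4% of all genes were higher and 30.3% lower. Of 8 B cell markers 0 were higher and 3 lower, and of 6 myeloid markers 0 were higher and 5 lower, with Tyrobp at 1.75 ± 0.985 CPM in called cells and 16.6 ± 7.2 CPM in other cells and Fcer1g, which NK-like lymphocytes also express, at 29.6 ± 20.1 CPM in called cells and 164 ± 90.5 CPM in other cells. The 1 epithelial marker tested, Epcam, did not pass, and 0 of 6 erythroid markers had enough UMIs for the test.

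Outside the lists, Esco2 and Pbk led the genes with the widest rise in called cells. Esco2, which acetylates cohesin, had 51.2, 57.9, 57.7 and 36.9 CPM in called cells in the same library order, against 0.059, 0, 0.22 and 0.245 CPM in other cells. Pbk, a mitotic kinase gene, averaged 58.9 ± 16 CPM in called cells and 0.18 ± 0.0862 CPM in other cells. Mxd3, Neil3, Shcbp1, Ccnf and Ncapg2 followed at log2 fold changes of 7.54, 7.29, 6.26, 5.89 and 5.33, with the histone genes Hist1h1b, Hist1h2ap and Hist1h2af at 5.69, 5.60 and 5.46. Hist1h2ap had 263 and 435 CPM in BALB/c and 349 and 28.4 CPM in B6 among called cells, low in the second B6 library, and histone genes of that cluster are near-identical copies whose reads can be split. The genes with the widest fall were Klra5, Itga1, Ifitm2, Lrrk1, Klrc2, Gimap3, Stat4, Rgs1, Fgl2 and Klrb1c, which fell by 2.42 to 2.73 on the log2 scale. Within the iNKT2-like class Ifitm2 and Stat4 did not pass, at log2 0.58 and 0.20 (adjusted p = 0.339 and 0.71), and Klra5 had -1.54 (adjusted p = 0.00192).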

How the data were processed

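The data were 4 single-cell RNA-seq matrices of raw UMI counts per gene and cell barcode, deposited by the authors; per the file headers they were made with Cell Ranger 6.0.0 (3 libraries) and 7.1.0 (second B6 library), while Cell Ranger 7.1.0 and mm10 stand in the submitters' processing notes of every library. No header or label says if counting used strand, or if reads in introns were counted in each library. Of the members, 14 overlap another gene on the other strand. The 41 members and all lists were chosen with earlier results of these data known.

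From those counts, cells with at least 500 genes, 1000 UMIs and at most 10% mitochondrial UMIs were kept, and doublets were marked with Scrublet at 0.8% per 1000 cells and removed. Cells thinned to 3000 UMIs were called by detection of at least 4 of 17 S or 21 G2/M genes. Uncalled cells were clustered (scanpy 1.11.5, 2000 variable genes, 30 components, 15 neighbours, Leiden resolution 1.0) and named from markers. Left out were the members and the other cell cycle lists, except CDK inhibitor, quiescence and growth genes. T cell receptor, immunoglobulin, H2, Klra, mitochondrial, ribosomal, histone, predicted and sex-linked genes were also left out. So were 227 further genes, not markers, that correlate with the cycle (r over 0.15). Called cells took the class of their neighbours. Raw counts were summed per library and tested with edgeR 4.0.16 (R 4.3.3; TMM, filterByExpr, quasi-likelihood, Benjamini-Hochberg over all genes tested), strain being the only term, or library and call status for called against other cells. Shares were compared with exact two-sided permutation tests over libraries (scipy 1.17.1), and DESeq2 1.42.0 was an alternative. Library totals of 20406245 to 82904358 UMIs set the counting precision. The edgeR steps were tested on simulated data.

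Values were printed for 8 genes set by name, members called between strains, and up to 3 members of lowest p per role; of other lists up to 4 genes of lowest p, and outside the lists up to 10 genes per direction with the widest change at 20 CPM or more and the same direction in every library. Same-numbered libraries of the 2 strains share only a number (r of their deviations -0.263 over 12878 genes). Alternatives covered scaling, filters, thinning depth, gene thresholds, clustering, left-out libraries and the replicate block.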

Additional observations from a re-analysis of the deposited data

Results flagged for a closer look

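The strain change of 5 of the 41 members differed between called and other cells in the test of that difference itself. In that fit 3.13% of 12094 genes passed, and values are in log2 units. Pttg1 had 3.66, with called cells at 141 and 160 CPM in BALB/c and 81.3 and 61.5 CPM in B6, and other cells at 14 and 12 CPM in BALB/c and 72.8 and 76.6 CPM in B6; it kept the call under every alternative run, at 3.37 to 4.10. Stmn1 had -0.42 and lost the call with thinned cells (-0.43, adjusted p = 0.181), with a threshold of 6 genes (-0.41, 0.0527) and without the first BALB/c library (-0.44, 0.0671). With calls made without them, in an unplanned fit where 4.85% of 11946 genes passed, Mcm6 had 0.91, Tk1 1.51 and Nusap1 2.84. The calls from all 38 genes at a threshold of 6 gave Tk1 an adjusted p of 0.177 in edgeR's test, and the values of Tk1 and Nusap1 rest on few UMIs in other cells.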

How the results depend on the processing

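The share difference of 2.38 points, BALB/c minus B6, was 2.15 to 2.62 with a library left out, 1.86 at 5000 UMIs, 1.54 at 3 genes, 1.99 at 6 genes, 9.31 without thinning, 0.199 with scanpy scores and -7.34 at a common class mix. For S (1.86) it was 0.959 at 3 genes, 1.13 at 6 genes, 8.29 without thinning and -0.1 with scanpy scores, and for G2/M (0.526) 1.02 without thinning; leaving out a library gave 1.31 to 2.41 and 0.209 to 0.842. In iNKT1-like cells (-3.9; -4.3 to -3.5 by library) it was -1.71 at 2000 and -5.13 at 5000 UMIs, -6.35 at 3 and -1.09 at 6 genes, -0.606 with scanpy scores, -10.4 without thinning, -2.65 without Mcm6, -2.66 and -3.13 at resolutions 0.5 and 1.5, -3.22 by marker score and -1.54 with all cells clustered together. In iNKT2-like cells (-18.9; -20.9 to -16.9 by library) it was -15.3 at 6 genes, -12.3 without thinning, -16.1 at resolution 0.5, -5.64 by marker score and -7.6 with all cells clustered together. In iNKT17-like cells (-2.64; -4.85 to -0.437 by library) it was -5.12 at 3 genes and -9.95 without thinning. In DP-like cells (0.181) it was -1.54 without the first and 1.9 without the second BALB/c library, -0.981 without the second B6 library, 2.96 at 2000 and -9.77 at 5000 UMIs, -5.37 at 3 and 2.59 at 6 genes, 4.41 with scanpy scores, 11 by marker score and 3.39 with all cells clustered together. With all cells clustered together, a cluster of 862 and 663 BALB/c cells with iNKT2 as its best list stayed unnamed. The iNKT2-like value of that setting therefore leaves out most such BALB/c cells. The cause of these shifts was not tested.

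Counts of members called, with a library left out, ran from 0 to 20 over all kept cells, 0 to 20 in iNKT1-like, 0 to 41 in iNKT2-like, 2 to 19 in iNKT17-like and 0 to 21 in DP-like cells; of all genes, 0 to 37.7%, 0.0796 to 25.9%, 0.239 to 41.3%, 2.16 to 20.5% and 0.0103 to 11.1% passed in the same fits. With the replicate block they were 0 over all kept cells (Mcm6 adjusted p = 0.0684, Pttg1 0.0955), 1 in iNKT2-like and 7 in iNKT17-like cells (2.05, 4.47 and 7.18% of all genes), and with the numbers crossed, an alternative chosen after seeing the data, 1, 23 and 9, with 3 in iNKT1-like and 6 in DP-like cells (6.12, 5.98, 8.18, 3.81 and 4.41%). The block gave Pttg1 within called cells an adjusted p of 0.0535. Without a filter on low counts 8 iNKT1-like, 36 iNKT2-like, 12 iNKT17-like and 6 DP-like members passed (5.36, 12.6, 7.32 and 3.89% of all genes); DESeq2 called 18 in iNKT2-like and 2 in iNKT17-like cells (9.02 and 2.85%), and library totals 9 and 2 (7.93 and 3.62%). Without called cells 1 of 14 members tested passed in iNKT1-like, 3 of 37 in iNKT2-like and 2 of 20 in iNKT17-like cells (2.42, 9.15 and 3.72% of all genes).

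Of all genes, 328 were called between strains within called cells (1736 without a filter; 29 to 2508 with a library left out), 6851 in called against other cells (3840 with no library block, 3917 thinned; 5642 to 6427) and 379 for the difference of strain changes (158 by DESeq2, 1021 without a filter, 128 thinned, 579 with calls without the 3 genes; 241 to 615). Within iNKT2-like cells Tbx21 (0.16), S1pr1 (-0.01), Ifitm2 (0.58) and Stat4 (0.20) changed sign. Over single genes and alternatives, 1100 results kept direction and call, 80 lost the call and 4 changed sign. Of the 1100, 942 came from called against other cells. Class shares with all barcodes or without doublet removal, and class counts with all barcodes, were not run, nor were the members of uncalled cells with a library left out. Depth limits G2/M shares in small classes.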
